A study of Mus musculus with 24 samples.

Results

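The D cyclins (Ccnd1, Ccnd2 and Ccnd3), the E cyclins (Ccne1 and Ccne2) and the kinases they activate (Cdk4, Cdk6 and Cdk2) were followed by RNA-seq in dermal papilla (DP) cells, the mesenchymal cells at the base of the hair follicle. These 8 genes were chosen by name among the 25755 genes of the deposited tables, and all 8 were found and passed the filter on low values in every fit. Libraries came from control and dM1/2 mice at P20 (first telogen, the resting phase), P24 (early anagen, the growth phase), P28 (mid anagen) and P60 (second telogen), with 3 libraries in each of the 8 groups. The dM1/2 mice carried Cor-cre/+, Hdac1 Flox/Flox and Hdac2 Flox/Flox, so that both class I histone deacetylases are lost where the Corin-cre line, active in the DP after birth, has recombined them. Control mice also carried Cor-cre/+, with floxed alleles of Hdac1, Hdac2 or both in combinations that leave a wild-type copy of at least one of the pair, and the labels do not say which combination a library had. YFP-positive cells, labelled from a ROSA26 reporter, were sorted from skin before RNA extraction. A lower or higher level may come from fewer or more cells of a kind or from less or more RNA per cell, and these cannot be told apart here.

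D cyclins are the mitogen-responsive subunits of the cell-cycle kinases: they bind Cdk4 or Cdk6, and the complex phosphorylates the retinoblastoma protein in G1. Release of E2F factors from that protein raises the genes of the next step, Ccne1 and Ccne2 among them, and cyclin E with Cdk2 completes the phosphorylation and opens S phase. INK4 inhibitors hold Cdk4 and Cdk6, and p21 and p27 hold cyclin E with Cdk2. DP cells are known as a largely quiescent population throughout the hair cycle.

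Values are reads counted per gene and divided by a size factor for each library, called normalized reads below, and differences are dM1/2 minus control on the log2(normalized reads + 1) scale with their standard error. A gene was called when the limma test, adjusted by Benjamini-Hochberg over all genes tested, gave an adjusted p under 0.05. Groups are described as apart when all libraries of 1 group lay above all of the other. The share of all genes with groups apart is not given here, so being apart is a description and not a result by itself. Libraries held 11635062 to 13369732 reads at P20, 35469841 to 49331751 at P24, 37171260 to 48331795 at P28 and 8171944 to 9724000 at P60. All P20 and P60 libraries had high Xist and no read of Ddx3y, and all P24 and P28 libraries the reverse, so that sex, depth and hair-cycle stage moved together and cannot be told apart in a comparison of telogen with anagen. Age did not follow them, since telogen held both the youngest and the oldest mice. Hdac1 held 675, 668 and 668 in control and 209, 188 and 116 in dM1/2 at P24 (log2 difference -2.01, adjusted p = 0.00167). At P28 it held 214, 529 and 105 in control and 190.2, 149 and 126 in dM1/2, and control library 3 lay below all dM1/2 libraries. Hdac1 was not called at P20, P28 or P60, and Hdac2 was called at no age, with means between 703 and 1221 normalized reads. The files do not show which exons these reads came from, so Hdac2 does not check its label.

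Upstream sequences are shown for 3 members that rose together at P24 (Ccne1, Cdk2 and Cdk6) and for Cdk4, which was not called at that age. They were taken from RefSeq promoters of build GRCm38.p6, which matched 5 of the 8 members (Ccnd3, Ccne1, Cdk2, Cdk4 and Cdk6), and the 250 bases before each start were searched on both strands for TTTNNCGC (E2F), CTTTGAT (TCF/LEF), GGGCGG (GC box), TGACGTCA (CRE) and TTTGAA (CHR). These motifs stood in 4.28%, 3.21%, 32.7%, 1.55% and 16% of all 32851 promoters, in that order. Capitals mark matches on either strand. The E2F letters matched once upstream of Cdk2 and once upstream of Cdk6, the TCF/LEF letters once upstream of Cdk4, and GC boxes 5 times upstream of Cdk2, 4 times upstream of Ccne1 (3 of them in the stretch shown) and once upstream of Cdk4. No motif here overlapped another, and neither CRE nor CHR letters were in the windows of these 4 genes. Stretches are those outside annotated exons. The E2F match of Cdk2 is given as a site of 20 bases, 18 of which lie in an exon of Pmel on the other strand. The Cdk6 stretch lies inside the gene as GENCODE annotates it, downstream of its first start.
Cdk2, chr10:128705052-128705179, minus strand, GRCm38: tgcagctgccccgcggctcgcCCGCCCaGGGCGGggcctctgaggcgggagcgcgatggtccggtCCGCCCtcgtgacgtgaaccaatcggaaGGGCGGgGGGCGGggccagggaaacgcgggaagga
Cdk2 E2F site, chr10:128705178-128705197, minus strand, GRCm38: ggaactGCGGGAAAgttgtg
Cdk6, chr5:3343643-3343731, plus strand, GRCm38: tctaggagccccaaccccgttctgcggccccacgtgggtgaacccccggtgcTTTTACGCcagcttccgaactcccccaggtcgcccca
Ccne1, chr7:38107535-38107740, minus strand, GRCm38: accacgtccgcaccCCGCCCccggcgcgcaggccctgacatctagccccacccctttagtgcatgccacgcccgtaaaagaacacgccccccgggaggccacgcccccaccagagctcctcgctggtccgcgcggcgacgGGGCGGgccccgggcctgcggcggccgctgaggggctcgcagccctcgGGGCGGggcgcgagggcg
Cdk4, chr10:127063285-127063533, plus strand, GRCm38: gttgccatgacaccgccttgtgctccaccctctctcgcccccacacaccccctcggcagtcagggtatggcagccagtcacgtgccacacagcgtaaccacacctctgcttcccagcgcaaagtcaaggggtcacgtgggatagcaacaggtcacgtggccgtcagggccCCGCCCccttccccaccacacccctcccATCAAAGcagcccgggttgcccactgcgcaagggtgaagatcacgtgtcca

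In anagen, 5 of the 8 members were higher in dM1/2 at P24 (Ccnd1, Ccne1, Ccne2, Cdk2 and Cdk6) and 5 at P28 (Ccnd1, Ccnd2, Ccne1, Ccne2 and Cdk2), and none was lower. Over all genes tested, 14.8% were called higher and 11.8% lower at P24, and 20.0% higher and 15.6% lower at P28. In telogen no member was called, against 0.354% of genes higher and 0.0795% lower at P20 and 0% in either direction at P60. At an unadjusted p under 0.05, 4 members passed at P20, where 19.8% of all genes did, and 1 at P60, where 3.74% did. DESeq2 called 2 members at P20, with 4.82% of all genes called, and 0 at P60, with 0.185%. edgeR called 0 members at either age. The median difference of the 8 members was 1.04 at P24 and 1.55 at P28, where the median of all genes was -0.01 and 0.00.

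**Figure D1:**
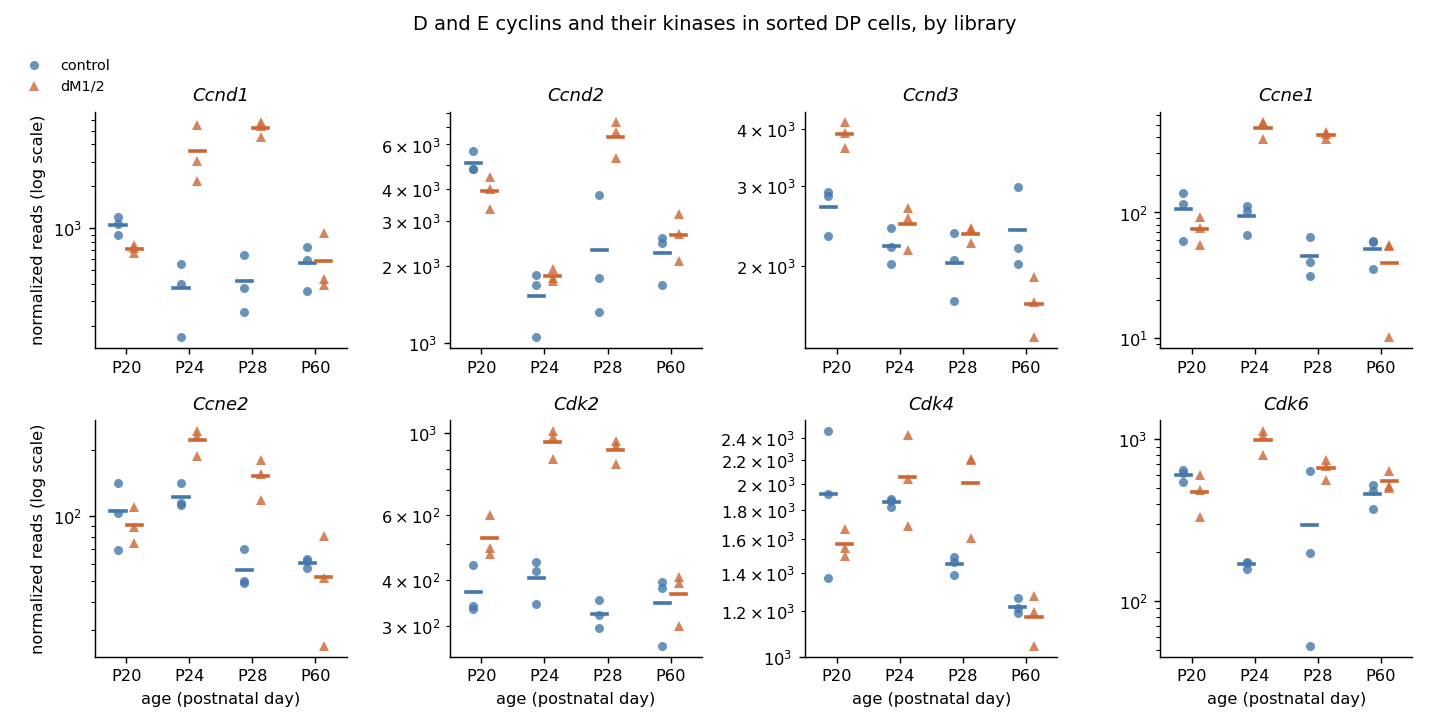
Normalized reads of each gene in each of the 24 libraries (log scale, with a range of its own for each gene) against age, with circles for control, triangles for dM1/2 and a line at each group mean. The dM1/2 libraries stand above all controls at P24 and P28 for Ccnd1, Ccne1, Ccne2 and Cdk2, whereas control 2 at P28 lies among the dM1/2 libraries for Cdk6.

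Ccnd1 (ENSMUSG00000070348, chr7:144929931-144939925, minus strand) encodes cyclin D1 and showed the largest difference of the 8 members at both anagen ages. At P24 it held 400.4, 554 and 166 normalized reads in the control libraries and 2174, 3042 and 5539.8 in dM1/2. The lowest dM1/2 library was above the highest control, and the difference was 3.32 ± 0.48 (n = 3 and 3 libraries, adjusted p = 0.00354 by limma), a fold of 9.96. At P28 it held 374, 644 and 251 normalized reads in the control libraries and 5733, 5435 and 4479 in dM1/2. The groups were again apart, with a difference of 3.72 ± 0.33 (adjusted p = 0.000525 by limma) and a fold of 13.2. At P20 the direction was the other way and not called, with 892, 1209 and 1073 normalized reads in the control libraries and 721, 757 and 666 in dM1/2 (difference -0.56 ± 0.14, adjusted p = 0.0938 by limma). Without P20 control 1 this difference was -0.67 with an adjusted p of 0.019, and DESeq2 gave -0.56 with 0.0367. At P60 the groups overlapped at 594, 734 and 355 normalized reads in the control libraries and 391, 432 and 932 in dM1/2 (difference 0.01 ± 0.38, adjusted p = 0.999 by limma).

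The order of Ccnd1 levels ran from dM1/2 at P28 (5216 ± 655, mean ± SD) and dM1/2 at P24 (3585 ± 1747), whose ranges overlapped, down to control at P20 (1058 ± 159) and dM1/2 at P20 (715 ± 45.9), which were apart from each other. Below these, both P60 groups and the controls of P28 (423 ± 201.0) and P24 (373 ± 196) each overlapped their neighbour. All 6 control libraries of anagen lay below all 3 of P20, while all 6 dM1/2 libraries of anagen lay above all 3 of P20.

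Ccnd2 (ENSMUSG00000000184, chr6:127125162-127152193, minus strand), cyclin D2, was not called at P24. Its libraries there held 1695, 1846 and 1052 normalized reads in control and 1796, 1750.0 and 1949 in dM1/2, with overlapping groups (difference 0.30 ± 0.21, adjusted p = 0.334 by limma). At P28 it rose, with 1803, 3812 and 1325 normalized reads in the control libraries and 6697, 7319 and 5322 in dM1/2. That difference was 1.61 ± 0.38 (fold 3.06, adjusted p = 0.0159 by limma), and the call was lost without control 1 (1.51, adjusted p = 0.0604), without dM1/2 1 (1.58, 0.0585) or without dM1/2 2 (1.51, 0.066). At P20 Ccnd2 was at 4802, 5633 and 4816 normalized reads in the control libraries and 4486, 4004 and 3362 in dM1/2, where the groups did not overlap and the difference of -0.37 ± 0.13 was not called (adjusted p = 0.181 by limma). At P60 it was at 2468, 2581 and 1685 normalized reads in the control libraries and 2098, 2665 and 3212 in dM1/2. The highest group was dM1/2 at P28 (6446 ± 1022), whose range overlapped that of control at P20 (5083 ± 476), and the lowest was control at P24 (1531 ± 421).

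Ccnd3 (ENSMUSG00000034165, chr17:47505051-47599691, plus strand), cyclin D3, was called at no age. It held 2206, 2420.4 and 2026 normalized reads in the control libraries and 2556, 2173 and 2688 in dM1/2 at P24 and 2062, 1672 and 2363 normalized reads in the control libraries and 2397, 2426 and 2250.2 in dM1/2 at P28, with overlapping groups and differences of 0.15 ± 0.13 and 0.23 ± 0.15. At P20 it stood at 2906, 2335 and 2851 normalized reads in the control libraries and 3631, 3926 and 4141 in dM1/2, apart from each other (difference 0.54 ± 0.12, adjusted p = 0.0791 by limma, 0.0079 by DESeq2 and 0.0248 by limma without control 1). At P60 the order was the other way, with 2021, 2195 and 2990.3 normalized reads in the control libraries and 1394, 1667 and 1894 in dM1/2 (difference -0.53 ± 0.20, adjusted p = 0.986 by limma).

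Response within the D cyclins was compared through the log2 level of one gene minus that of its paralog in each library, with genotype labels permuted within P24 and P28 (exact two-sided test, 400 arrangements, 7 pairs of members compared, adjusted by Benjamini-Hochberg over the pairs). The anagen difference of Ccnd1 exceeded that of Ccnd2 by 2.56 and that of Ccnd3 by 3.33 on the log2 scale. Both gave exact p = 0.005, the smallest this test can give, and adjusted p = 0.00875. Ccnd2 exceeded Ccnd3 by 0.76 (exact p = 0.065, adjusted 0.0758), made of 0.14 at P24 and 1.39 at P28. Without P24 control 1 it exceeded it by 0.81 (adjusted exact p = 0.0408), without P24 control 2 by 0.81 (0.0408) and without P28 control 2 by 1.05 (0.04).

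Levels of different genes were set against each other per kilobase of exon, with exon lengths from GENCODE M21. Each length was the union of exons over all annotated isoforms (4.709 kb for Ccnd1, 9.409 for Ccnd2 and 8.775 for Ccnd3). It can exceed the length of the transcript expressed, which was not examined, so the shares per kb depend on this choice. In control, Ccnd1 made 15.2% ± 5.43 (SD, n = 3) of D-cyclin reads per kb at P24 and 15.3% ± 3.6 at P28. In dM1/2 it made 59.5% ± 10.4 and 53.7% ± 1.51, so that in anagen the most abundant D cyclin per length was Ccnd3 or Ccnd2 in each control library and Ccnd1 in each dM1/2 library. Without division by length, Ccnd2 was above Ccnd1 in each dM1/2 library of P28 (45.8% ± 2.11 against 37.2% ± 1.43 of D-cyclin reads). On that scale Ccnd3 was above Ccnd1 in library 1 of dM1/2 at P24, so that the leading D cyclin depended on the length division. In telogen the Ccnd1 share per kb ran from 14.6% to 15.6% in dM1/2 at P20 and from 16.3% to 26.2% in dM1/2 at P60, with controls at 18.4% to 22.9% and 12.7% to 22.9%. The summed level of the 3 genes was 495 ± 108 normalized reads per kb in control and 1238 ± 397 in dM1/2 at P24, and 567 ± 145 against 2061 ± 249.5 at P28. At P20 the sums were 1072 ± 45.8 and 1016 ± 39.6, with Ccnd2 at 50.3% ± 2.74 in control and Ccnd3 at 43.9% ± 4.51 in dM1/2 as the largest part. No test was run on these shares.

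**Figure D2:**
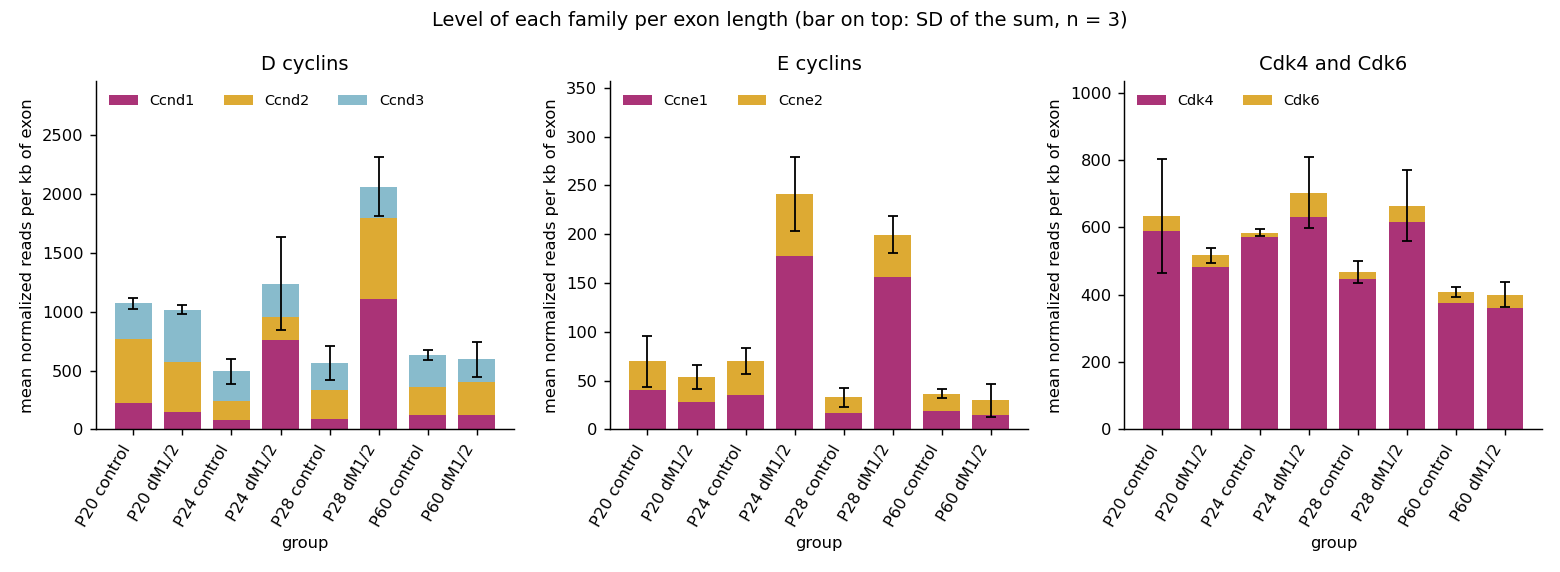
Stacked bars give the mean normalized reads per kb of exon of each member in the 8 groups (linear axes from 0), for the D cyclins, the E cyclins and Cdk4 with Cdk6; error bars are the SD of the sum over 3 libraries. Ccnd1 fills the largest part of the D-cyclin bar in dM1/2 at P24 and P28, and Cdk4 fills most of the kinase bar in all groups.

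Ccne1 (ENSMUSG00000002068, chr7:38097984-38107534, minus strand), cyclin E1, held 66.2, 102 and 113 normalized reads in the control libraries and 522, 384 and 515 in dM1/2 at P24 and 30.9, 63.4 and 40.2 normalized reads in the control libraries and 383, 439.7 and 426 in dM1/2 at P28. All mutant libraries were above all controls at both ages, with differences of 2.35 ± 0.24 (fold 5.08, adjusted p = 0.00139 by limma) and 3.24 ± 0.28 (fold 9.48, adjusted p = 0.000469). In telogen its groups overlapped, at 58.9, 143 and 118 normalized reads in the control libraries and 54.6, 75.2 and 92.5 in dM1/2 at P20 and 58.8, 35.7 and 57.6 normalized reads in the control libraries and 10.1, 55.3 and 54.1 in dM1/2 at P60. The P60 values rest on 4 to 28 reads a library.

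Ccne2 (ENSMUSG00000028212, chr4:11191351-11204779, plus strand), cyclin E2, rose by less. It held 111, 114 and 141 normalized reads in the control libraries and 233, 187 and 244 in dM1/2 at P24 (difference 0.85 ± 0.18, fold 1.81, adjusted p = 0.0133 by limma) and 50, 70.4 and 49.3 normalized reads in the control libraries and 119, 155 and 181 in dM1/2 at P28 (difference 1.40 ± 0.25, fold 2.64, adjusted p = 0.00609). The groups were apart at both ages. The P24 call was lost without control 2 (0.81, adjusted p = 0.053), without dM1/2 1 (0.81, 0.0528) and in a fit over all 24 libraries (0.85, 0.0555). In telogen the groups overlapped, at 69.6, 141 and 103 normalized reads in the control libraries and 75, 88.5 and 109 in dM1/2 at P20 and 63.0, 62.0 and 57.6 normalized reads in the control libraries and 25.2, 80.5 and 51.8 in dM1/2 at P60. The anagen difference of Ccne1 exceeded that of Ccne2 by 1.67 on the log2 scale (exact p = 0.005, adjusted 0.00875 over the 7 pairs). Per kb, Ccne1 made 49.7% ± 5.3 of the E-cyclin reads in control and 73.7% ± 0.907 in dM1/2 at P24, and 50.2% ± 4.87 against 78.4% ± 2.69 at P28.

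Cdk2 (ENSMUSG00000025358, chr10:128697939-128705031, minus strand), the kinase partner of the E cyclins, rose at both anagen ages. At P24 it held 344, 424 and 447 normalized reads in the control libraries and 1015, 852 and 978 in dM1/2 (difference 1.23 ± 0.14, fold 2.35, adjusted p = 0.00194 by limma). At P28 it held 322, 296 and 352 normalized reads in the control libraries and 828, 925 and 956 in dM1/2 (difference 1.48 ± 0.13, fold 2.79, adjusted p = 0.000489). The groups were apart at both ages. At P20 they were apart too, at 340.1, 333 and 439 normalized reads in the control libraries and 489, 469 and 599 in dM1/2, but the difference of 0.49 ± 0.16 was not called (adjusted p = 0.152 by limma). At P60 they overlapped, at 264, 381 and 394 normalized reads in the control libraries and 300.4, 407 and 393 in dM1/2.

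Cdk4 (ENSMUSG00000006728, chr10:127063534-127067920, plus strand), a kinase of the D cyclins, passed the threshold at no age in these fits. It held 1883, 1869.7 and 1826 normalized reads in the control libraries and 2038, 1688 and 2431 in dM1/2 at P24, with control inside the range of dM1/2 (difference 0.13 ± 0.15, adjusted p = 0.571 by limma). At P28 it held 1389, 1492 and 1464 normalized reads in the control libraries and 1606, 2210.3 and 2199 in dM1/2, with the groups apart and a difference of 0.45 ± 0.15 (adjusted p = 0.0571 by limma). That difference was called by edgeR with TMM (0.47, adjusted p = 0.0437), by DESeq2 (0.45, 0.0327), by limma with TMM scaling (0.46, 0.0433), in a fit over all 24 libraries (0.45, 0.0369) and without dM1/2 1 (0.61, 0.0137). In telogen its groups overlapped, at 1371, 2470.0 and 1916 normalized reads in the control libraries and 1667, 1545 and 1494 in dM1/2 at P20 and 1264, 1213 and 1189.7 normalized reads in the control libraries and 1275, 1043 and 1196 in dM1/2 at P60.

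Cdk6 (ENSMUSG00000040274, chr5:3341485-3531008, plus strand), the other kinase of the D cyclins, rose at P24, with 173, 175 and 158 normalized reads in the control libraries and 1125, 1053 and 805 in dM1/2. The groups were apart, and the difference was 2.54 ± 0.16 (fold 5.82, adjusted p = 0.000378 by limma). At P28 it held 197, 639.8 and 52.7 normalized reads in the control libraries and 682, 557 and 743 in dM1/2. Control 2 lay inside the mutant range, and the difference of 1.79 ± 0.80 was not called (adjusted p = 0.126 by limma). Without control 2 it was 2.67 (adjusted p = 0.0085), and in the fit over all 24 libraries 1.79 (0.00733). Among P28 controls, library 2 also had the highest Hdac1, Ccnd1 and Ccnd2, and Col1a1 took 19.8% of its reads, against 9.74% in control 1. The part of these features in the Cdk6 value was not tested. In telogen the groups overlapped, at 621, 647 and 545 normalized reads in the control libraries and 329.7, 602 and 486 in dM1/2 at P20 and 481, 522 and 374 normalized reads in the control libraries and 499.9, 518 and 638 in dM1/2 at P60. Control at P24 was the lowest group (169 ± 9.27), its range overlapping that of control at P28, and dM1/2 at P24 the highest (994 ± 168).

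Among the kinases, Cdk2 exceeded Cdk4 in its anagen difference by 1.06 (exact p = 0.005, adjusted 0.00875 over the 7 pairs), and Cdk6 exceeded Cdk4 as well, Cdk4 minus Cdk6 being -1.88 (exact p = 0.02, adjusted 0.028). Cdk2 and Cdk6 differed by -0.81 (exact p = 0.21, adjusted 0.21), and without P28 control 2 by -1.28 (adjusted exact p = 0.0117). Per kb, Cdk4 was the more abundant kinase of the D cyclins in all 24 libraries. It made 97.9% ± 0.0823 of the Cdk4 and Cdk6 sum in control and 89.6% ± 2.88 in dM1/2 at P24, and 95.6% ± 4.24 and 92.7% ± 1.72 at P28. The sum of both was 584 ± 9.82 normalized reads per kb in control and 703 ± 106 in dM1/2 at P24.

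**Figure D3:**
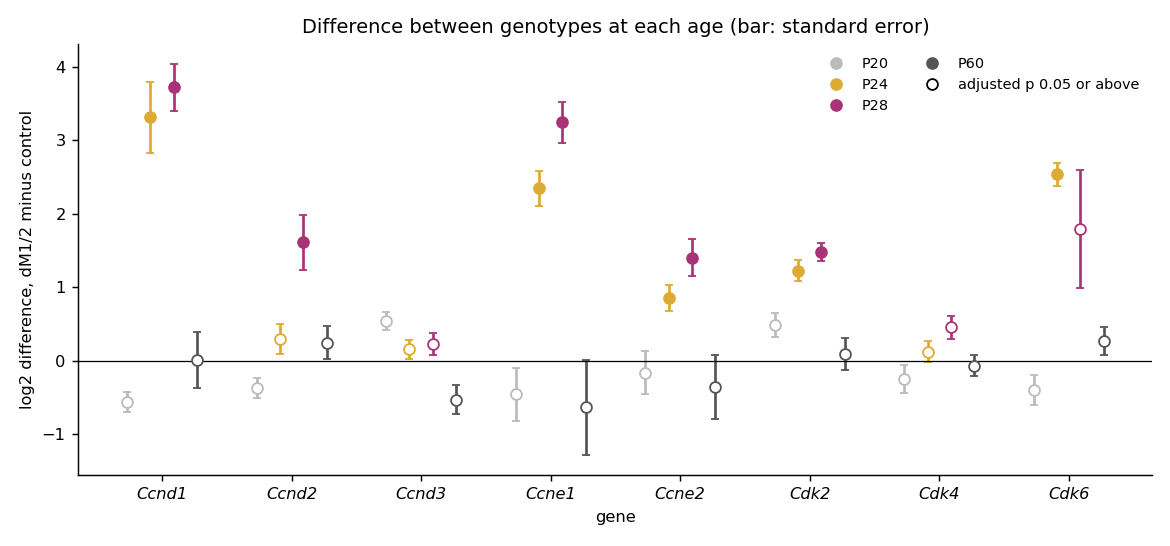
Log2 difference (dM1/2 minus control) of each gene at P20, P24, P28 and P60, with its standard error, filled where the adjusted p was under 0.05. Filled points stand only at P24 and P28, from 0.85 for Ccne2 to 3.72 for Ccnd1, and the P28 point of Cdk6 is open with an error of 0.80.

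Whether the difference between genotypes depended on the stage was tested in one fit over all 24 libraries. The mean anagen difference (P24 and P28) exceeded the mean telogen difference (P20 and P60) for 7 of the 8 members, with 16.1% of all genes called in that direction and 14.1% in the other. The excess was 3.79 ± 0.42 for Ccnd1, 3.34 ± 0.47 for Ccne1 and 2.23 ± 0.50 for Cdk6 on the log2 scale. It was smaller for Ccne2 (1.39 ± 0.32), Cdk2 (1.07 ± 0.17) and Ccnd2 (1.02 ± 0.29). For Cdk4 it was 0.45 ± 0.17 with an adjusted p of 0.0489 by limma, and this call was lost without any one of 20 of the 24 libraries (0.35 to 0.47, adjusted p 0.0537 to 0.0982). Ccnd3 was not called (0.19 ± 0.15, adjusted p = 0.39 by limma). Between P28 and P24 the differences of no member were called apart (0.453% of genes higher and 0.255% lower), and 2 members, Ccnd2 (1.31 ± 0.47) and Ccne1 (0.90 ± 0.38), had an unadjusted p under 0.05, as 11.9% of all genes did. edgeR called none either. Without P28 control 2 the value of Ccnd2 was 1.75 (adjusted p = 0.0357 by limma).

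Over the 4 ages, 5 members varied in control by the limma F test (Ccnd1, Ccnd2, Ccne1, Ccne2 and Cdk4), where 49.0% of genes were called, and all 8 varied in dM1/2, where 59.9% were. In control the adjusted p was lowest for Ccnd2 (0.00855) and highest for Cdk2 (0.429), whose group means lay between 323 and 405 normalized reads. The control count fell to 2 without P20 control 3 or without P60 control 1, and to 3 without P20 control 2, P24 control 2, P28 control 1, P60 control 2 or P60 control 3. In dM1/2 the count was 8 without any one library.

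Genes that act on these cyclins and kinases were read from fixed lists. All list counts below, markers included, stand against the shares over all genes tested. These were 14.8% higher and 11.8% lower at P24, and 20.0% higher and 15.6% lower at P28. Of the CDK inhibitors, 3 of 7 tested genes rose at P24 and 5 of 7 at P28, with list medians of 0.68 and 1.07, and none was lower. Cdkn2a, the locus of p16INK4a and p19ARF, had the largest rise at P28 among inhibitors with groups apart, and was at 4.2 ± 2.08 normalized reads in control and 28.3 ± 6.43 in dM1/2 at P28 (log2 difference 2.55 ± 0.47, adjusted p = 0.00659). Cdkn1a (p21) was called at P28 (2.45, adjusted p = 0.0143 by limma) and not at P24 (0.68, 0.13).

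Of 13 Rb and E2F genes, 7 rose at P24 and 7 at P28, with medians of 0.56 and 0.55 and none lower. E2f8, an E2F without a transactivation domain that represses E2F targets, was at 19.9 ± 9.62 normalized reads in control and 165 ± 24.5 in dM1/2 at P28 (log2 difference 3.12 ± 0.42, adjusted p = 0.002). Tfdp2, a dimerization partner of E2F factors, was at 558 ± 17.8 normalized reads in control and 1071 ± 126 in dM1/2 at P28 (log2 difference 0.93 ± 0.13, adjusted p = 0.00209). Rb1, the substrate of the D-cyclin kinases, was higher at both ages (0.92 at P24, adjusted p = 0.017, and 0.77 at P28, adjusted p = 0.00192, limma).

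Of 10 S-phase entry genes, 9 rose at P24 and 10 at P28 (medians 1.66 and 2.72), and Mcm5, a subunit of the replicative helicase, was at 77.1 ± 23.5 normalized reads in control and 745 ± 73.8 in dM1/2 at P28 (log2 difference 3.30 ± 0.24, adjusted p = 0.000323). Of the later cyclins and their kinase, 4 of 5 tested genes rose at P24 and 5 of 5 at P28 (medians 1.65 and 3.07). Cdk1, the kinase of mitotic entry, was at 33.7 ± 17.9 normalized reads in control and 629 ± 40.6 in dM1/2 at P28 (log2 difference 4.33 ± 0.39, adjusted p = 0.000612).

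Of 8 CDK activation genes, 5 rose at P24 and 5 at P28, and 1 fell at P28 (medians 0.68 and 0.90). Cdc25c, a phosphatase that activates Cdk1, was at 8.64 ± 4.26 normalized reads in control and 229 ± 33.4 in dM1/2 at P28 (log2 difference 4.66 ± 0.38, adjusted p = 0.000434), and Cdk7, the CDK-activating kinase, fell and was at 1157 ± 52.0 normalized reads in control and 859.6 ± 72.9 in dM1/2 at P28 (log2 difference -0.43 ± 0.12, adjusted p = 0.0261). Cdc25c passed the filter on low values at P28 only through its dM1/2 libraries. Of 9 genes of cyclin D and E turnover, 2 rose at each age, Skp2 and Usp28 (list medians -0.01 and 0.14). That count is near the share of all genes called higher at P28 (20.0%). Skp2, the ubiquitin ligase subunit that targets p27, was at 69.0 ± 7.51 normalized reads in control and 190.2 ± 33.2 in dM1/2 at P28 (log2 difference 1.44 ± 0.20, adjusted p = 0.00244).

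Cyclins and kinases outside the G1/S step had 3 of 19 genes higher and 1 lower at P24 and 2 higher and 2 lower at P28 (medians -0.05 and 0.04). Of all genes, 14.8% were higher and 11.8% lower at P24, and 20.0% and 15.6% at P28, so these counts do not stand out. Cdk14, a cyclin Y partner that acts on the Wnt co-receptor Lrp6, fell and was at 2357 ± 202 normalized reads in control and 912 ± 87.7 in dM1/2 at P28 (log2 difference -1.37 ± 0.13, adjusted p = 0.000658). Ccny, its cyclin, was at 2112 ± 291 normalized reads in control and 1562 ± 61.2 in dM1/2 at P28 (log2 difference -0.43 ± 0.13, adjusted p = 0.045). Ccng1, a p53 target, rose and was at 1402 ± 70.2 normalized reads in control and 2559 ± 518 in dM1/2 at P28 (log2 difference 0.85 ± 0.16, adjusted p = 0.00801). Ccng2 was at 838 ± 121 normalized reads in control and 1375 ± 139 in dM1/2 at P28 (log2 difference 0.72 ± 0.15, adjusted p = 0.0104).

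Of 13 genes of mitogen input to Ccnd1, 1 rose and 5 fell at P24, and 1 rose and 3 fell at P28 (medians -0.31 and -0.14). The one that rose was Mycn, a Myc-family factor. It was at 4.34 ± 3.23 normalized reads in control and 268 ± 14.7 in dM1/2 at P28 (log2 difference 5.91 ± 0.57, adjusted p = 0.0007). At that age it passed the filter on low values only through its dM1/2 libraries. At P24 it was at 12.2 ± 2.71 normalized reads in control and 143 ± 26.9 in dM1/2 (log2 difference 3.46 ± 0.28, adjusted p = 0.000842). Fos and Egr1, immediate-early genes of the mitogen response, were lower, with Fos at 57391 ± 19370.3 normalized reads in control and 26042 ± 1669 in dM1/2 at P28 (log2 difference -1.08 ± 0.35, adjusted p = 0.0498) and Egr1 at 39749.8 ± 8879 normalized reads in control and 20936 ± 2308 in dM1/2 at P28 (log2 difference -0.90 ± 0.27, adjusted p = 0.04). Skin was digested overnight in trypsin and then in collagenase before sorting, and the part of this handling in the Fos and Egr1 levels was not tested. Myc itself was not called at either age (0.08 at P24 and 0.26 at P28). At P28 its control libraries ran from 91.0 to 2703 normalized reads around a mean of 1329, above the dM1/2 mean of 802, so that its log2 difference and its means differ in direction. Also not called were the Wnt targets Lef1 and Axin2. In telogen no tested gene of these 8 lists was called at P20 or P60. Genes averaging under 10 normalized reads at an age had no test there. At P60 these included E2f8 (mean 3.69 in control and 10.7 in dM1/2) and Cdc25c (2.36 and 9.86), each with groups apart.

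**Figure D4:**
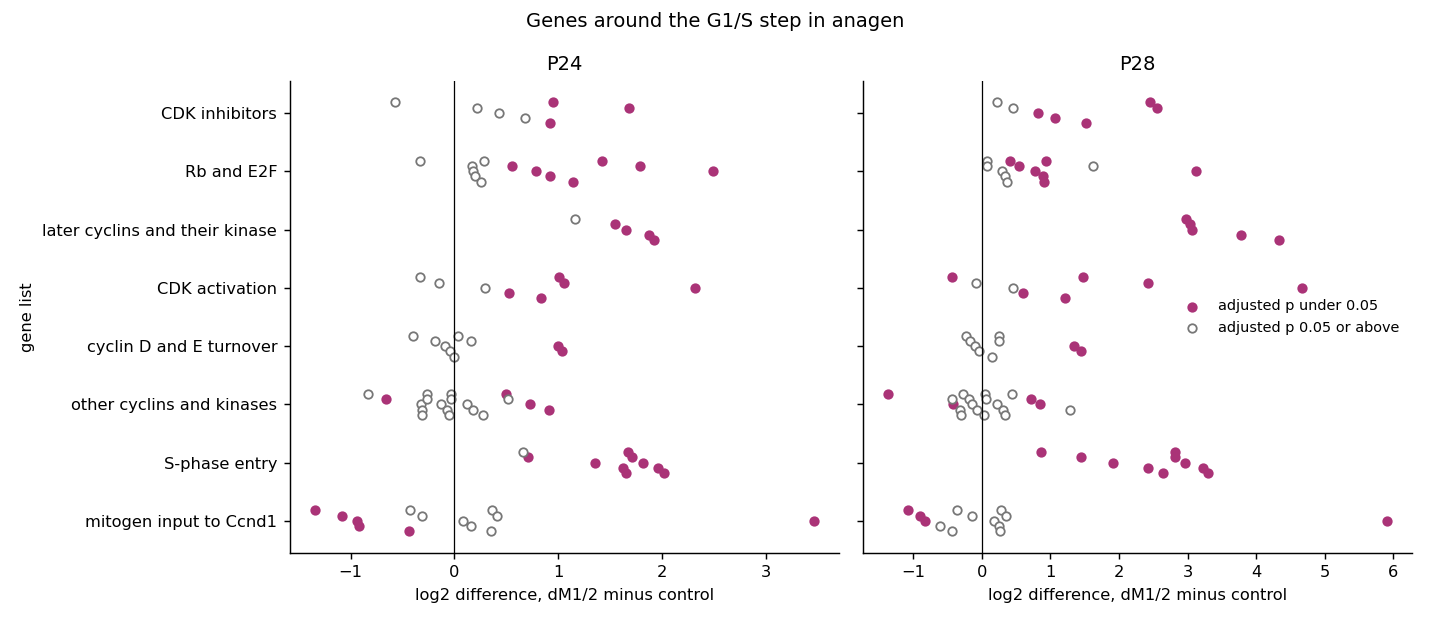
Log2 difference (dM1/2 minus control) of each tested gene of the 8 fixed lists at P24 and P28, filled where the adjusted p was under 0.05 (points are spread vertically for sight only). All 10 S-phase entry genes are filled to the right of 0 at P28, while other cyclins and kinases lie on both sides of 0 and Mycn is at 5.91.

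Markers of cycling cells (Mki67, Top2a, Cdk1, Aurkb and Plk1) were higher in 5 of 5 at P24 and P28. Their summed level was 1471 to 4821 normalized reads in control and 7325 to 8986 in dM1/2 at P24, 472 to 655 and 5174 to 6155 at P28, and 69.2 to 105 and 151 to 442 at P60. At P20 the sums overlapped, at 228 to 1953 in control and 225 to 1322 in dM1/2, with a list median of -0.33. At P60 the sums did not overlap, and the list median was 1.34 over the 4 genes tested. No tested cycling marker was called at P20 or P60. Of 12 DP markers, 1 was higher at P20, 7 were lower and 1 higher at P24, and 4 lower and 2 higher at P28. The list medians were -0.67 at P24 and -0.93 at P28. Corin, a single marker named after its value was seen, lay further down, at -1.98 and -3.33 on the log2 scale. It does not stand for the list, in which 1 marker was higher at P24 and 2 at P28. DP markers summed to 297806 to 359326 in control and 150862 to 187105 in dM1/2 at P24, and 144367 to 427284 and 119359 to 134297 at P28. These sums weigh the most abundant genes most. That gene was Vcan at P24 (mean 168490 in control and 73467.5 in dM1/2) and in P28 control (88538.8), and Wif1 in P28 dM1/2 (46788.6). Markers of other fibroblasts summed to 15114 to 44934 in control and 13084 to 19049 in dM1/2 at P24, and to 24525 to 69912 and 13831 to 20069 at P28, with 1 of 5 lower at each age. Keratinocyte markers (11 of 12 in the files) summed to 95.7 to 526 in control and 162 to 220.2 in dM1/2 at P24, and to 60.3 to 263 and 171 to 260.1 at P28. Of these, 1 was lower at P24 and 1 higher at P28. Shh, which marks the growing follicle epithelium, had no read in P24 control, P28 dM1/2 and all telogen groups. Their part in the differences of the cyclins and kinases was not tested.

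Melanocyte markers summed to at most 206 normalized reads in any library and skeletal muscle markers to at most 126. No tested gene of these lists was called at any age, and no skeletal muscle marker passed the filter on low values at P28. Immune markers summed to 149 to 639.9 in control and 99.8 to 176 in dM1/2 at P24, with 1 lower, and to 83.4 to 993 and 199.996 to 719.8 at P28, with none called. Endothelial markers summed to 373 to 1012 and 436 to 798 at P24, with 1 lower, and none was called at P28. Of the dermal sheath and smooth muscle markers none was called at either age. Exons of 7 of the 8 members, all but Ccne1, lie in part over a gene on the other strand, with 1100 exonic bases shared in Ccnd1, 641 in Cdk4, 609 in Ccne2, 372 and 368 with a gene each in Ccnd2, 368 in Cdk6, 361 in Ccnd3 and 34 in Cdk2, and the counting setting for strand is not given in the sources used here. The gene over Ccnd1, listed as Oraov1, was at 239 ± 7.48 normalized reads in control and 293 ± 15.3 in dM1/2 at P24. Ints8, over Ccne2, was at 707 ± 49.0 and 837 ± 65.3 at P24, and Tspan31, over Cdk4, at 938 ± 82.5 and 830.3 ± 178. If strand was not used, reads in the shared bases cannot be told apart from those of the partner gene.

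Among 14242 other genes, those with a profile most like each member over the 24 libraries were found by the root mean square difference of log2 values centred on each gene's mean, a measure in which libraries of 1 age and genotype are close to each other by design. For Ccnd1, whose own SD was 1.46, the nearest were Arl4c (0.67), Nrtn (0.67), Arhgap15 (0.68), Cxadr (0.70) and Rell2 (0.70). Arhgap15, a Rac GTPase-activating protein, averaged 196 normalized reads in control and 1114 in dM1/2 at P24, and 294 and 2720.0 at P28. Ccne1 was nearest to Espl1 (0.47), the separase, and Phf19 (0.47), a Polycomb accessory factor, and Ccne2 to Hist2h2ac (0.28), a histone H2A gene, and Pmf1 (0.31), of the kinetochore. Cdk2 was nearest to 1600002H07Rik (0.20) and Snx25 (0.20), Cdk4 to Strap and Ppp1ca (both 0.12), and Cdk6 to Smtnl2 (0.50) and Rhpn2 (0.51). Ccnd2 was nearest to Ckb (0.45) and Srm (0.46), and Ccnd3 to Suco and Fam117b (both 0.22).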

How the data were processed

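DP cells, labelled by YFP in the Corin-Cre line, were FACS-sorted from mouse skin, and stranded libraries were made from ribosome-depleted RNA. Trimming used Trimmomatic, alignment to mm10 used TopHat2, and HTSeq counted reads on Ensembl GRCm38.p4 genes. The authors deposited normalized signal values, which are read counts divided by DESeq2 size factors over all 24 libraries. The strand setting of HTSeq is not given in the sources used here. The deposited tables also hold columns of the authors' own fold changes and p-values, which were not used. Multiplying by size factors gave whole reads for 100% of values (tolerance 0.01). The 24 columns were matched to groups by name, with 0 columns unmatched. 4842 of 25755 genes had no read.

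Genes averaging 10 or more normalized reads among the libraries fitted were tested by limma 3.58.1 (trend, two-sided, pseudocount 1, R 4.3.3) for genotype at each age, for stage by genotype over all ages, and for age within genotype. Benjamini-Hochberg adjustment ran over all genes tested, with a threshold of 0.05. Recovered reads were tested as alternatives with edgeR 4.0.16 and DESeq2 1.42.0. At P20, P24, P28 and P60, limma called 60, 3735, 5018 and 0 genes, edgeR with TMM 78, 3746, 4918 and 0, and DESeq2 668, 4702, 5828 and 26. Fits were tested on simulated data. Exon lengths, coordinates and overlaps were taken from GENCODE M21 (GRCm38), and promoters from RefSeq GRCm38.p6.

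Named genes are the 8 members, Hdac1 and Hdac2, and of each fixed list the largest rise and fall at P28 with groups apart (up to 2 each in lists of over 10 genes), and the genes with the profile nearest to each member (5 for Ccnd1, 2 for the others). Rb1, Cdkn1a, Usp28, Myc, Lef1, Axin2 and Corin were named after their values were seen. The members and lists were chosen with earlier results of these data known. The labels call the libraries biological replicates, and per the methods each mouse skin was dissociated on its own, though no label ties a library to a mouse. P-values measure the spread between these libraries.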

Additional observations from a re-analysis of the deposited data

Results flagged for a closer look

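For 7 members the difference between dM1/2 and control was larger in anagen (mean of P24 and P28) than in telogen (mean of P20 and P60) by a test of that difference itself, limma over 24 libraries with an adjusted p under 0.05. Of all genes in that fit, 16.1% were called in the same direction and 14.1% in the other. The excess on the log2 scale was 3.79 for Ccnd1, 3.34 for Ccne1, 2.23 for Cdk6, 1.39 for Ccne2, 1.07 for Cdk2, 1.02 for Ccnd2 and 0.45 for Cdk4. The Cdk4 call (adjusted p = 0.0489 by limma) was lost in 22 of 29 alternative fits. Sex and depth moved with stage and cannot be told apart from it. No test for outlying libraries was run in these groups of 3, but the fit was repeated without each library in turn.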

How the results depend on the processing

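The counts of members called at P24 and P28 were 4 to 5 and 4 to 7 over the alternatives. No member was called at P60 under any of them. At P20, DESeq2 called 2 members, and leaving out 1 library gave 0 to 2, with 2 without P20 control 1 (the cause was not tested). Leaving out 1 library, with fewer samples, gave 0 to 1 members whose P28 and P24 differences were apart and 2 to 6 that varied with age in control. The differences whose sign turned were those not called. Without 1 library they ranged from -0.42 to 0.082 for Ccne2 at P20 and from -0.0035 to 0.26 for Cdk4 at P24. At P60 they ranged from -0.38 to 0.24 for Ccnd1, -0.092 to 0.23 for Cdk2, -1.03 to 0.14 for Ccne1, -0.73 to 0.085 for Ccne2 and -0.13 to 0.015 for Cdk4. Between P28 and P24 they ranged from -0.060 to 0.19 for Ccnd3 and -1.66 to 0.13 for Cdk6. With TMM scaling Ccnd1 at P60 was -0.018. Without division by length, the share of Ccnd1 among D-cyclin reads in control and dM1/2 was 11.9% and 8.34% at P20, 8.63% and 43.8% at P24, 8.56% and 37.2% at P28, and 10.7% and 11.5% at P60, lower since Ccnd1 is the shortest of the 3 genes. Of the pairs of members, 5 passed with a pseudocount of 10, and 5 to 7 without 1 library.

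Replicate numbers were not used as pairs in the main fits. The correlation of same-numbered libraries was 0.23, 0.08 and 0.12 at P20, and at the other ages likewise not above 0.1 in all 3. Each P20 library correlated best with its own number, a hint from the data only, so that pairing at P20 cannot be decided here. At the other ages this did not hold for every library. With the number as a replicate block, 0, 5, 5 and 0 members were called at P20, P24, P28 and P60, and 6 in the comparison of anagen with telogen, where Cdk4 was lost (0.45, adjusted p = 0.0687 by limma). Over all genes, calls at P20 were 60, against 668 with DESeq2, 439 with the block and 1530 without P20 control 1. Leave-one-out fits of age and of the pairs were added after the data were seen. P20 and P60 libraries held fewer reads, which limits what those ages can show for Ccne1 and Ccne2.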
